A study of Homo sapiens with 4 samples.

Results

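The zinc finger genes of human chromosome 19 were followed in U87MG cells, an established human glioblastoma line, by RNA sequencing of 4 libraries. Of these, 2 libraries came from untreated cells and 2 from cells given 50 nM chaetocin, dissolved in DMSO, for 24 h, and all cells were wild type and at passage 8 to 10. The labels call the controls untreated and mention no DMSO for them, so effects of the solvent and of chaetocin cannot be told apart. The rule for the genes used annotation and no measured value, and took the protein-coding genes of chromosome 19 in GENCODE v29 whose symbol starts with ZNF and a number. This rule gave 249 genes, of which 247 were listed among the 57905 genes of the count tables, and *ZNF8* and *ZNF229* were not analysed here. After the filter on low counts, 169 of the 247 could be tested among 16416 genes in all. In bulk samples, fewer cells with a transcript and less of it per cell cannot be told apart.

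Most of these genes encode transcription factors with an array of C2H2 fingers, each a short loop of protein folded around a zinc ion that reads a few bases of DNA, and many also carry a KRAB domain. KRAB recruits the corepressor TRIM28, which brings the methyltransferase SETDB1 and the HP1 proteins to the bound site, where histone H3 becomes trimethylated at lysine K9 (H3K9me3). The zinc finger genes themselves lie in tandem clusters whose coding ends are normally coated with the same mark. Chaetocin, made by *Chaetomium* fungi, blocks SUV39H1 and other enzymes that methylate histones, and also inhibits thioredoxin reductase. By western blot, the paper found the H3K9me3 level of the cells unchanged upon chaetocin. The mark was not measured at these genes in the data used here. The comparison asks how the transcripts of these clusters stood after treatment.

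Total counts ranged from 21241984 to 32590479 per library, and 3 reads corresponded to between 0.0844 and 0.138 CPM, the unit used for levels here (counts divided by the TMM-adjusted library size), a floor that covers counting error only. The labels do not say whether the 2 libraries of a group came from separate cultures, so the p-values measure the spread between these samples. Of 9 glioma and mesenchymal markers, *VIM* and *CD44* were abundant. *SOX2* had 0 reads in both controls and 2 and 5 with chaetocin, and *S100B* had 0 in both controls and 2 and 2. Both had too few reads to test. Of the 7 tested, 1, *CHI3L1*, was called lower with chaetocin, beside 0.743% of all tested genes. All 7 had log2 fold changes below 0, from -1.28 to -0.54 with a median of -0.80, whereas 50.9% of all tested genes were above 0. The list summed to 5901 and 5211 CPM in the controls and 3434 and 2199 CPM with chaetocin. The part of this shift in the results on zinc finger genes was not tested. Chaetocin library 2 stood apart for the zinc finger genes, and results are therefore given for each library.

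The proteins translated from the longest coding sequences had a median of 588 residues and 12 finger matches, a match being a pair of cysteines spaced by 2 to 4 residues, then 12 residues, then a pair of histidines spaced by 3 to 5. A stretch resembling the first part of the KRAB domain was found in 208 of the 249 genes, and the letters searched may miss divergent domains. *ZNF729* had the most fingers, with 39 matches. The transcripts were poorer in G and C than those of tested protein-coding genes, with a median of 42.3% against 48.3%. A median of 3.91% of the 50-base windows of a member also occurred in transcripts of another listed gene, and 34 members shared more than 20% of them. The reads were 50 bases long, so reads from such stretches could not be assigned to a single gene by sequence alone.

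Ordered by start, the members fell into 9 clusters of at least 5 genes, split where neighbouring starts were more than 1 Mb apart, plus 11 isolated members. Positions are those of GRCh38, whereas the submitters' processing notes name GRCh37, and the genes were joined by Ensembl identifier. Clusters 1 to 4 lie on the short arm, from 2.82 to 2.94 Mb, from 7.07 to 9.79 Mb, from 11.5 to 12.6 Mb and from 19.7 to 24.1 Mb. Clusters 5 to 9 lie on the long arm, from 34.7 to 35.0 Mb, from 36.2 to 37.8 Mb, from 43.5 to 45.1 Mb, from 51.6 to 53.6 Mb and from 55.5 to 58.5 Mb.

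The clusters differed in how many of their members had reads over the 4 libraries. All 23 listed members of cluster 7 and all 5 of cluster 5 had enough reads to be tested, against 14 of 37 in cluster 4 and 10 of 26 in cluster 6. The other clusters lay between, with 4 of 5 members of cluster 1, 14 of 16 of cluster 2, 15 of 26 of cluster 3, 24 of 40 of cluster 8 and 49 of 58 of cluster 9. No read was found in any library for 16 members, and 7 of these belong to cluster 4, among them *ZNF729*, *ZNF98* and *ZNF99*. Per kilobase of transcript, the median control level over listed members was 0.036 CPM per kb in cluster 4 and 1.39 CPM per kb in cluster 7. Cluster 4 also had the lowest median number of CpG dinucleotides, 10, in the 300 bases around the RefSeq start, compared with 18.5 in cluster 7 and 26 in cluster 5. The number did not follow the share of tested members, since cluster 6 had 22.5 and cluster 8 had 25. Among listed members with a promoter entry, the median was 21 CpG for 151 tested members and 17 for 64 untested ones.

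**Figure D1:**
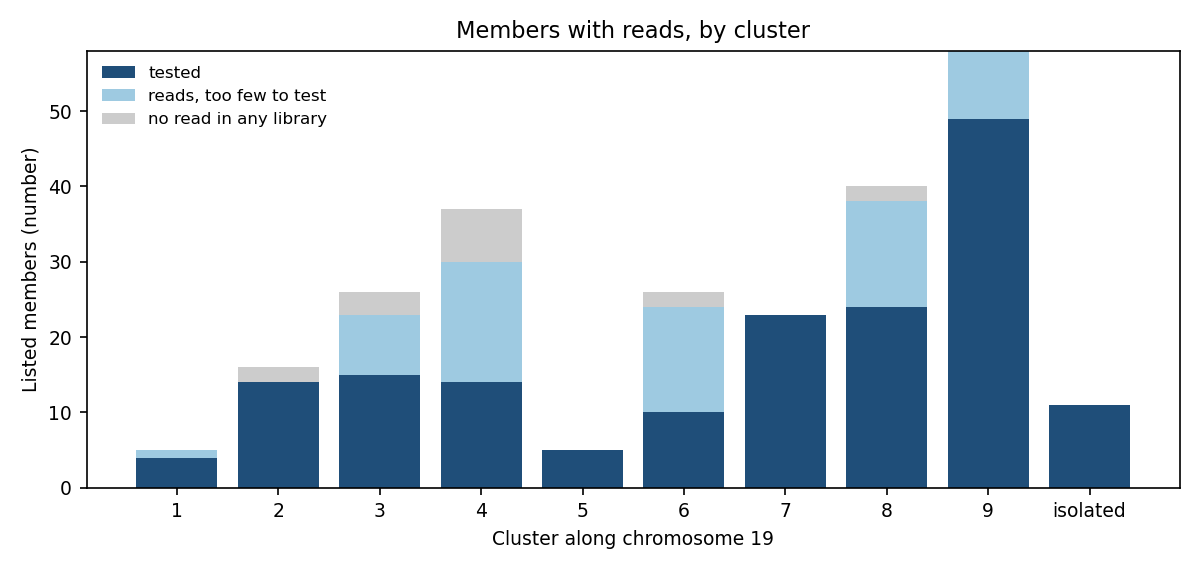
Number of listed members per cluster (vertical axis) along chromosome 19 (horizontal axis), split into tested members, members with too few reads to test and members with no read in any of the 4 libraries. Cluster 7 was tested in full, whereas 14 of 37 members of cluster 4 were tested.

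Only 1 of the 169 tested members was called upon chaetocin treatment at an adjusted p under 0.05 (edgeR's quasi-likelihood test with Benjamini-Hochberg adjustment over all genes). *ZNF560* was higher and 0 members were lower. *ZNF560* passed the filter on low counts only through the chaetocin libraries, where it is high. The calls higher and lower were 0.592% and 0.00% of the members, beside 1.11% of all tested genes called higher and 0.743% called lower. At an unadjusted p under 0.05, 7 members were higher, 4.14%, and 5 were lower, 2.96%, against 10.9% and 9.43% of all tested genes. Both chaetocin libraries lay above both controls for 49 members, 28.99%, a share close to the 26.8% of all tested genes. Both lay below both controls for 20 members, 11.8%, against 26.0% of all tested genes. For the ZNF genes of other chromosomes, these shares were 33.0% and 15.6% of 218 genes. The number of calls depended on chaetocin library 1. Without it 5 members were called higher and 2 lower, among 1332 and 1673 of 17644 genes, *ZNF560*, *ZNF772*, *ZNF101*, *ZNF460* and *ZNF317* on the higher side and *ZNF175* and *ZNF146* on the lower side.

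Errors differed between the members. The standard error was taken as the size of the log2 fold change divided by the square root of the test's F statistic. It is nominal for genes with few reads, and the 95% intervals rest on it. It ranged from 0.15 to 0.89, with a median of 0.29 for members and 0.21 for all tested genes. For 101 of 169 members, the 95% interval of the log2 fold change lay between -1 and 1, that is, within a doubling or halving. Among the 70 members with a mean of at least 5 CPM, this held for 66. Log2 fold changes of at least 1 in size were found for 11 members, 6.51%, and for 9.30% of all tested genes.

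*ZNF560* (ENSG00000198028) lies in cluster 2, on the minus strand (chr19:9466507-9498607), and encodes 13 finger matches behind a KRAB-like stretch. It had 1 and 0 reads in the controls and 21 and 34 reads in the chaetocin libraries, or 0.041 and 0 CPM against 0.965 and 0.957 CPM. Both chaetocin libraries were thus high and nearly equal, and the groups did not overlap. The reads pooled per group gave a ratio of 51.0 with an exact 95% counting interval from 8.78 to 2051, which rests on 1 control read. In the edgeR fit the gene had a log2 fold change of 5.36 with a standard error of 0.89 (adjusted p = 0.0338), a size that depends on the prior count. None of its 50-base windows occurred in another listed gene. With counts downsampled to the smallest library the adjusted p was 0.0570. The next members on either side were expressed in all libraries. *ZNF266*, at lower coordinates, had 16.5 and 16.1 CPM in the controls and 17.4 and 22.5 CPM with chaetocin. *ZNF426* had 5.57 and 5.36 CPM against 5.01 and 8.28 CPM, where the groups overlapped. Neither of these neighbours was called.

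The 250 bases upstream of the RefSeq start are printed for *ZNF560*, the called member, beside *ZNF772*, which had the lowest p after it, *ZNF175*, which DESeq2 called lower, and *ZNF146*, the most abundant member. The choice of these 4 was made with their values known. Sequences run 5′ to 3′ on the strand of the gene, on GRCh38.p14, and CpG dinucleotides are in capitals.
ZNF560 (minus strand, chr19:9498617-9498866): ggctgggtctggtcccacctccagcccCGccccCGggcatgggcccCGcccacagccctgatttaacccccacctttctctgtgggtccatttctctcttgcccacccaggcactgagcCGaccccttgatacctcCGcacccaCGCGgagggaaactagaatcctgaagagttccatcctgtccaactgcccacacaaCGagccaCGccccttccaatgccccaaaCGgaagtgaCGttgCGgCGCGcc
ZNF772 (minus strand, chr19:57477567-57477816): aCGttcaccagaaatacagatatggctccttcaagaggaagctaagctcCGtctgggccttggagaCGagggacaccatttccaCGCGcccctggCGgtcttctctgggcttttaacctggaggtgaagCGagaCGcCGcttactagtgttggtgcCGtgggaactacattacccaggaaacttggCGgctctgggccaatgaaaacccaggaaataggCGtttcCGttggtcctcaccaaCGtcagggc
ZNF175 (plus strand, chr19:51571033-51571282): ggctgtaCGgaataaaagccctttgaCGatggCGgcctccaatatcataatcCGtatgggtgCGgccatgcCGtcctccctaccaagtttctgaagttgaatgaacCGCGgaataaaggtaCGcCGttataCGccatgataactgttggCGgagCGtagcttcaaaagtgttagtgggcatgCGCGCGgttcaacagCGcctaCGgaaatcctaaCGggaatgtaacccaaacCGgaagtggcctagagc
ZNF146 (plus strand, chr19:36214856-36215105): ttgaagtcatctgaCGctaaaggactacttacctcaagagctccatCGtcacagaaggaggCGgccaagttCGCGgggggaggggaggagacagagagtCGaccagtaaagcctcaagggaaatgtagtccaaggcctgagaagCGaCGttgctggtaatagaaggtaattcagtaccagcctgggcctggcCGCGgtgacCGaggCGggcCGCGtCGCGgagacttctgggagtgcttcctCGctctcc
The *ZNF560* and *ZNF772* stretches each held 14 CpG, that of *ZNF146* held 17 and that of *ZNF175* held 20. Of 35116 RefSeq promoters cut to the same length, 44.8% held at least 14 CpG and 32.4% at least 20. The median was 16 CpG over 217 members with an entry and 11 over all promoters. CpG number, as counted here, therefore did not set the called gene apart from the rest of its family.

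Markers of blood cells were also followed. Of 10 leukocyte and blood markers, 5 could be tested and 2 were called higher, beside 1.11% of all tested genes. Both passed the filter on low counts only through the chaetocin libraries, where they are high. *PTPRC*, the CD45 antigen, had 0 and 1 reads in the controls and 15 and 27 with chaetocin, and *ITGAM*, an integrin of myeloid cells, had 0 and 1 against 24 and 29. *CD14* had 7 and 11 reads against 10 and 41, *CD68* 5 and 4 against 8 and 12 and *LYZ* 0 and 0 against 0 and 7. Of the 5 tested markers 4 had a log2 fold change above 0, with a median of 1.30. *CD3E*, *MS4A1* and *HBB*, markers of T cells, B cells and red cells, had 0 reads in all 4 libraries. The summed level of the list was 27.7 and 22.6 CPM in the controls and 35.3 and 18.4 CPM with chaetocin, most of it *CSF1R*. The part of other cells in the *ZNF560* reads was not tested.

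The median log2 fold change over the 169 members was 0.11, with 111 members above 0, against a median of 0.01 over all tested genes, of which 50.9% were above 0. The shift differed between the treated libraries. Against the mean of both controls, the median log2 difference was -0.02 in chaetocin library 1, where 81 members were above 0, and 0.22 in chaetocin library 2, where 116 were. Between the controls, the members' median difference was 0.01. Without chaetocin library 1 the fitted median was 0.22, and without chaetocin library 2 it was -0.04. Chaetocin library 2 exceeded library 1 in 117 of 169 members, or 69.2%, and in 50.2% of all tested genes.

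The ZNF genes of other chromosomes showed nearly the same values. Over 218 such genes the medians were 0.01 in chaetocin library 1 and 0.20 in library 2, with a fitted median of 0.11. Other protein-coding genes that lie within the 9 cluster spans had medians of 0.12 in library 1 and -0.03 in library 2 over 70 genes, and all 728 other tested protein-coding genes of chromosome 19, these 70 included, had 0.15 in library 1 and -0.02 in library 2. In cluster 3, with 4 such neighbours, their library 2 median was 0.22. With the trend on transcript GC content removed from each library, the medians over the members were 0.02 and 0.23. No test between these gene groups was made.

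**Figure D2:**
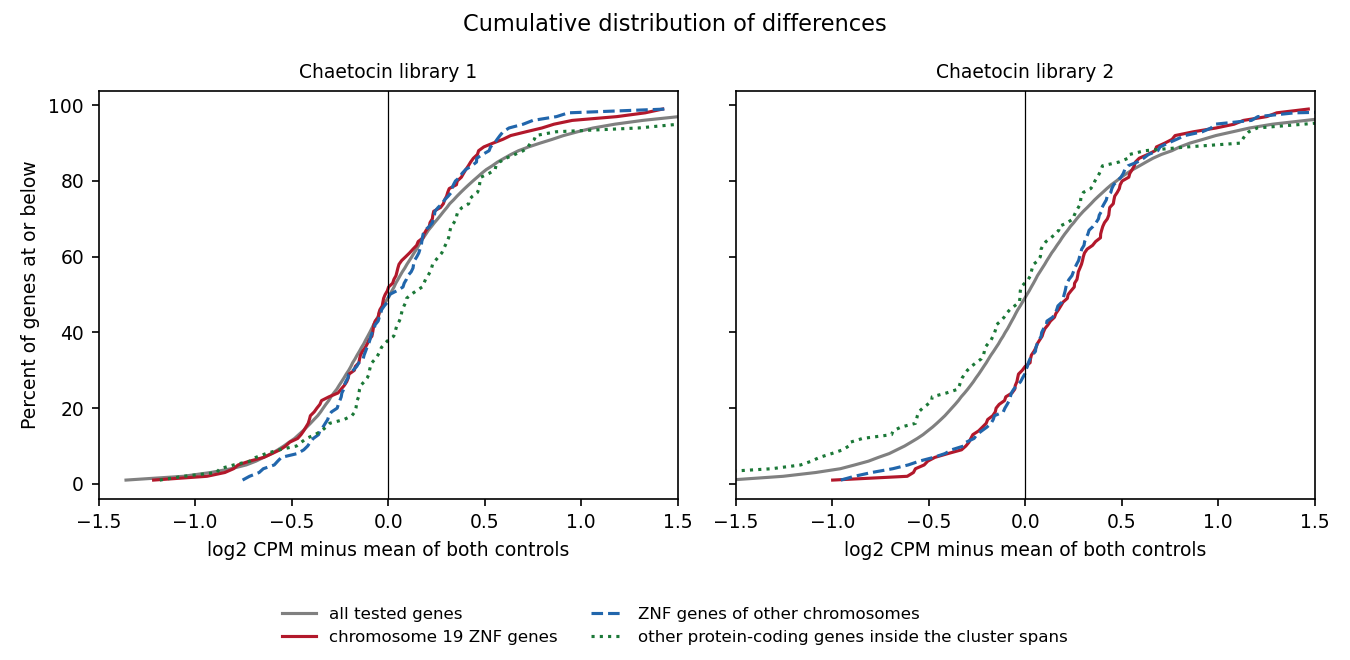
Percent of genes (vertical axis) at or below each log2 difference from the mean of both controls (horizontal axis), for all tested genes, the chromosome 19 ZNF genes, ZNF genes of other chromosomes and other protein-coding genes inside the cluster spans. In chaetocin library 1 the curves of both ZNF groups cross 0 near the middle, with medians of -0.02 and 0.01, and in library 2 both lie to the right, with medians of 0.22 and 0.20.

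By position, chaetocin library 2 was highest over the short arm. Its medians against the control mean were 0.41 in cluster 1, 0.45 in cluster 2, 0.39 in cluster 3 and 0.41 in cluster 4. On the long arm they were 0.03 in cluster 5, 0.08 in cluster 6, 0.16 in cluster 7, 0.23 in cluster 8 and 0.09 in cluster 9. Chaetocin library 1 did not show this order. Its medians were 0.10, -0.01, -0.08 and 0.04 in clusters 1 to 4, and -0.27, -0.08, -0.01, -0.19 and 0.05 in clusters 5 to 9. Between the controls, the cluster medians differed by -0.21 in cluster 1 to 0.15 in cluster 6, a range like that of the values in chaetocin library 1. In every cluster chaetocin library 2 lay above library 1, and the difference between the medians of the 2 treated libraries was larger than the size of the fitted median in clusters 2 to 8. Both treated libraries had a median above 0 in clusters 1, 4 and 9 and among the isolated members.

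**Figure D3:**
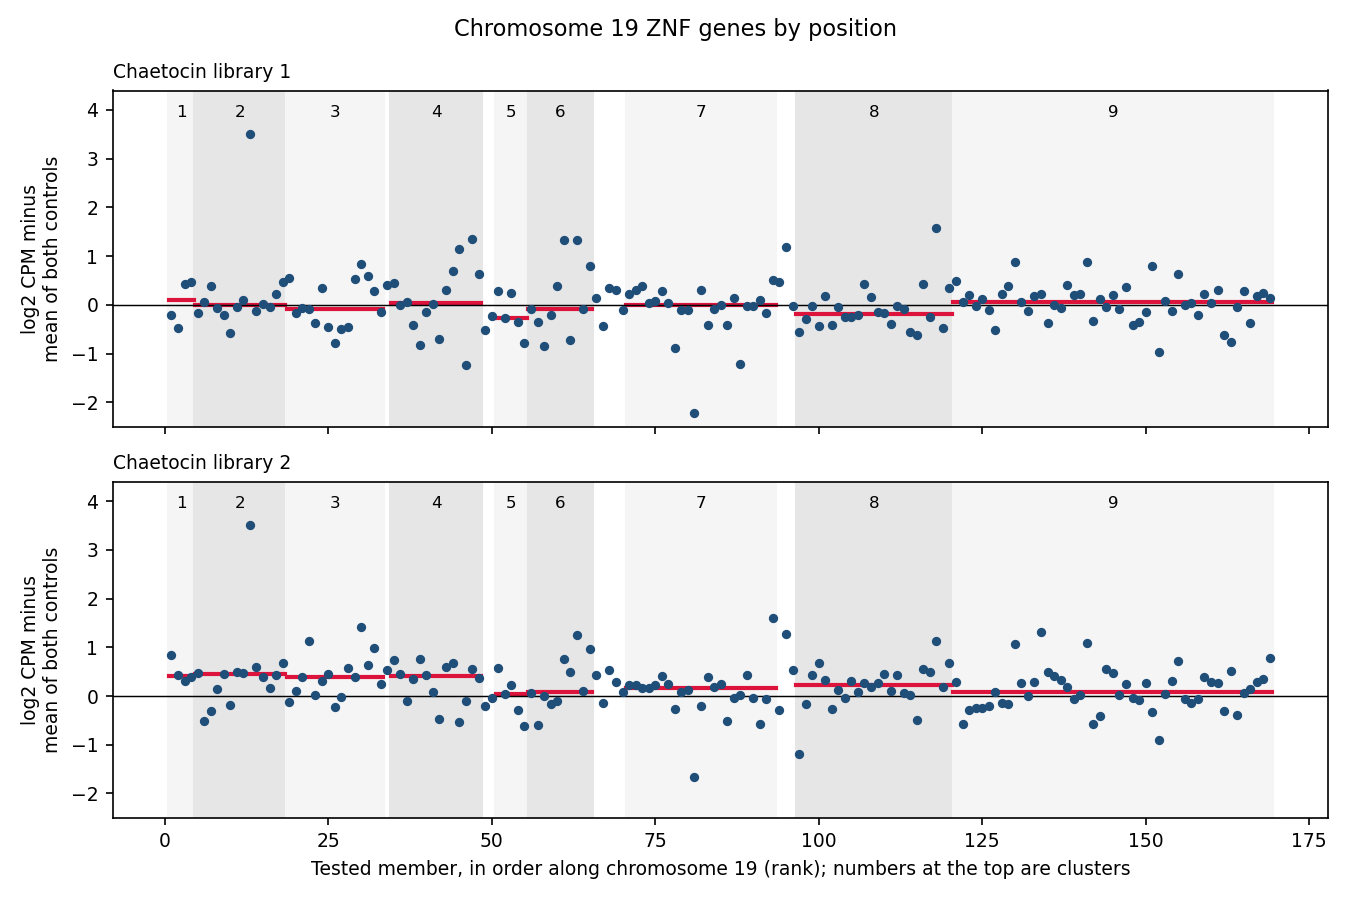
Log2 CPM in each chaetocin library minus the mean of both controls (vertical axis) for the 169 tested members in their order along chromosome 19 (horizontal axis, rank), with grey bands for clusters 1 to 9 and red lines for cluster medians. *ZNF560* is the high point of cluster 2 in both libraries, and the red lines of clusters 1 to 4 lie between 0.39 and 0.45 in library 2 but between -0.08 and 0.10 in library 1.

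The short arm clusters held no called gene besides *ZNF560*. In cluster 1, all 4 tested members had a fitted log2 fold change above 0, from 0.06 for *ZNF555* to 0.43 for *ZNF554*. *ZNF77*, the most abundant of them, had 8.24 and 7.06 CPM in the controls and 10.6 and 10.0 CPM with chaetocin, without overlap (log2 fold change 0.43, adjusted p = 0.295). In cluster 2, the summed level of all members was 158 and 161 CPM in the controls, 156 CPM in chaetocin library 1 and 196 CPM in library 2. *ZNF561*, its most abundant member, had 33.5 and 35.2 CPM against 33.2 and 38.6 CPM, and the groups overlapped.

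Cluster 3 summed to 86.9 and 84.7 CPM in the controls, 76.1 CPM in chaetocin library 1 and 103 CPM in library 2, so that the treated libraries lay on either side of the controls. *ZNF791* led it with 24.1 and 24.4 CPM against 21.9 and 28.99 CPM. *ZNF799* had 0.820 and 0.487 CPM in the controls and 1.20 and 1.80 CPM with chaetocin (log2 fold change 1.22, standard error 0.47, adjusted p = 0.195). This value is uncertain, because 34.2% of its windows occur in other listed genes, mainly its paralog *ZNF443*. The first 50 bases of a stretch of 174 identical coding bases in both genes, which begins at base 132 of the *ZNF799* coding sequence, are shown as an example of a read that could not be placed.
ZNF799 and ZNF443: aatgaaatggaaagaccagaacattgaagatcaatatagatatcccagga

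Cluster 4, the long tract of primate-expanded genes next to the centromere, had the lowest median control level per kb over listed members and summed to 34.9 and 37.5 CPM in the controls and 44.1 and 51.9 CPM with chaetocin. Much of this was *ZNF101*, which had 18.9 and 20.01 CPM against 26.5 and 32.7 CPM (log2 fold change 0.61, standard error 0.17, adjusted p = 0.108, and 0.00379 without chaetocin library 1). *ZNF714* was lower in both treated libraries, with 1.31 and 1.46 CPM against 0.827 and 0.985 CPM (adjusted p = 0.431). Neither passed the threshold.

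On the long arm, cluster 5 gave -0.10 as its fitted median over 5 members. *ZNF302* had 10.3 and 7.73 CPM in the controls and 10.9 and 13.3 CPM with chaetocin, whereas *ZNF792* had 7.74 and 9.05 CPM against 4.83 and 5.43 CPM (log2 fold change -0.71, standard error 0.23, adjusted p = 0.138). These members of a single cluster thus lay on opposite sides of their controls.

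Cluster 6 summed to 81.6 and 88.6 CPM in the controls and to 69.2 and 61.1 CPM with chaetocin, mostly through *ZNF146*. *ZNF146* encodes a protein made almost wholly of fingers, with no KRAB-like stretch, and was the most abundant member also per length, at 16.6 CPM per kb over all libraries. It had 70.6 and 74.9 CPM in the controls and 57.0 and 47.9 CPM with chaetocin, without overlap (log2 fold change -0.47, standard error 0.15, adjusted p = 0.139, and 0.00730 without chaetocin library 1). *ZNF585A* had 8 and 3 reads against 13 and 20 reads (log2 fold change 1.44, adjusted p = 0.276), and its fold change was 2.41 on the log2 scale without control library 1 and 0.80 without control library 2.

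All listed members of cluster 7 were expressed, and their sum was 121 and 123 CPM in the controls and 124 and 130 CPM with chaetocin. *ZNF45* had 13.8 and 12.9 CPM against 16.2 and 17.7 CPM (log2 fold change 0.35, adjusted p = 0.321). *ZNF223* had 17 and 20 reads in the controls and 2 and 6 with chaetocin, the smallest log2 fold change of all members at -2.31 (standard error 0.63, adjusted p = 0.0956). That value is uncertain too, since 61.9% of its windows are shared with an overlapping listed gene, AC067968.1, which had 0 reads in all 4 libraries. *ZNF296* had 11 and 7 reads against 11 and 41 reads, and its log2 fold change of 1.31 was 0.54 without chaetocin library 2.

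In cluster 8, *ZNF175*, studied as a repressor of retroviral promoters, had 32.5 and 25.8 CPM in the controls and 19.6 and 12.6 CPM with chaetocin. The groups did not overlap, and the log2 fold change was -0.86 (standard error 0.24, adjusted p = 0.0984). This gene was called lower by DESeq2's Wald test (adjusted p = 0.0265), without the filter on low counts (adjusted p = 0.000765), without control library 2 (adjusted p = 0.0481) and without chaetocin library 1 (adjusted p = 0.000662). *ZNF525* had 8 and 2 reads against 14 and 16 reads, with a log2 fold change of 1.47 (adjusted p = 0.321). This value was 2.87 without control library 1 and 0.70 without control library 2. *ZNF347* had 10 and 15 reads against 6 and 11 reads, and its groups overlapped in reads but not in CPM.

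Cluster 9, at the end of the long arm, was the largest and the steadiest, with sums of 311 and 316 CPM in the controls and 325 and 329 CPM with chaetocin. *ZNF134*, its most abundant member, had 24.0 and 24.4 CPM against 18.2 and 23.6 CPM. *ZNF772* had 3.16 and 3.13 CPM in the controls and 5.84 and 6.76 CPM with chaetocin (log2 fold change 1.00 ± 0.25 SE, adjusted p = 0.0776, and 0.0109 without chaetocin library 1). It is named because it had the lowest p after *ZNF560*, a choice made after its values were seen. *ZNF671* had 13 and 26 reads against 7 and 12 reads (log2 fold change -1.12, adjusted p = 0.302, and -0.69 on the log2 scale without control library 2).

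The 11 isolated members were all tested. *ZNF507*, their most abundant gene, had 46.4 and 47.4 CPM in the controls and 40.3 and 45.7 CPM with chaetocin (log2 fold change -0.13, adjusted p = 0.687). *ZNF114* had 6 and 22 reads against 24 and 42, and a log2 fold change of 1.15 (adjusted p = 0.303), which was 0.56 without control library 1 and 2.19 without control library 2. The groups did not overlap in CPM for either gene, and neither was called.

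**Figure D4:**
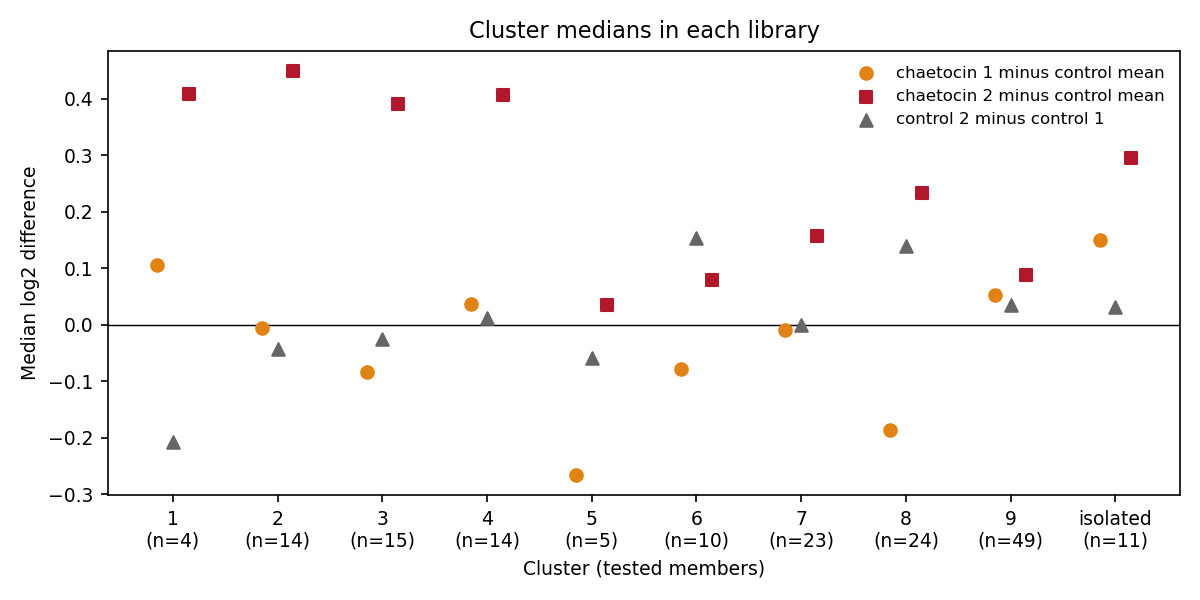
Median log2 difference over the tested members of each cluster (vertical axis), for each chaetocin library against the mean of both controls and for control 2 against control 1. Library 2 lies above library 1 in every cluster, from 0.03 to 0.45, and the triangles show that the controls differed by -0.21 to 0.15.

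**Figure D5:**
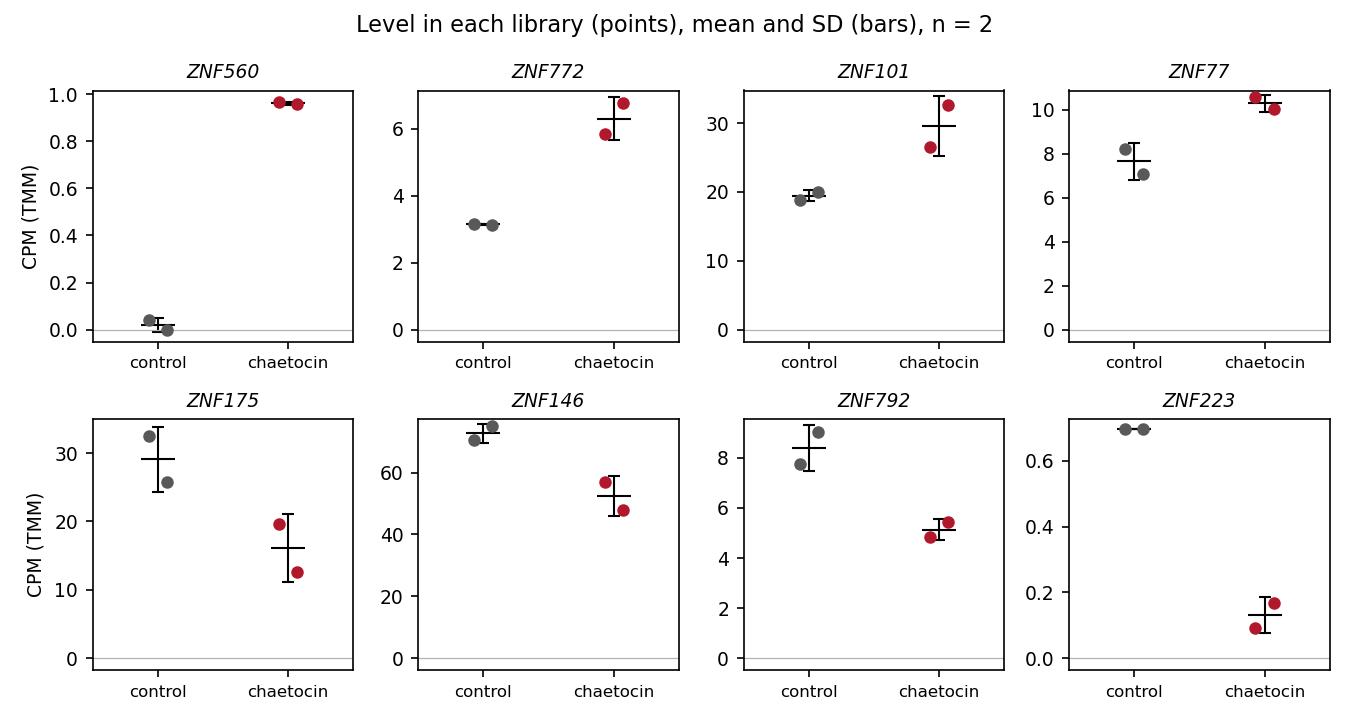
CPM after TMM scaling (vertical axis) of 8 members in each library (points), with the mean and SD of 2 libraries per group (bars). The upper row shows members with higher levels upon chaetocin, from 0.041 and 0 to 0.965 and 0.957 CPM for *ZNF560*, and the lower row members with lower levels, of which none was called.

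A list of 18 members with a known role, *ZNF146* and *ZNF175* among them, held 12 genes that could be tested. Of these, 0 were called, a count that the shares of 1.11% higher and 0.743% lower among all tested genes do not set apart. *ZNF274*, which binds the coding ends of other ZNF genes and brings SETDB1 there, had 5.82 and 5.67 CPM in the controls and 7.12 and 6.92 CPM with chaetocin (log2 fold change 0.29, standard error 0.22, adjusted p = 0.502). The retrotransposon repressors *ZNF91* and *ZNF93* were barely expressed. *ZNF91* had 2 and 3 reads against 7 and 14, too few to test, and *ZNF93* had 15 and 14 reads against 6 and 35, with treated libraries on either side of the controls.

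Other members of the list act in growth control and stress. *ZNF350*, a repressor that works with BRCA1, had 2.13 and 2.75 CPM in the controls and 2.76 and 3.04 CPM with chaetocin. *ZNF224*, a repressor of an aldolase gene, had 2.34 and 2.26 CPM against 1.70 and 3.04 CPM, and 48.3% of its windows are shared with other listed genes. *ZNF304*, linked to silencing of tumour suppressor genes, had 13.1 and 14.1 CPM against 13.6 and 18.1 CPM. *ZNF420*, which restrains p53, had 0 and 3 reads in the controls and 1 and 2 with chaetocin, and *ZNF383* had 3 and 2 reads against 8 and 6.

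*ZNF473*, a factor of histone messenger RNA processing, had 7.95 and 10.3 CPM in the controls and 8.87 and 13.2 CPM with chaetocin. *ZNF558*, a repressor of a mitophagy gene, had 13.1 and 11.6 CPM against 11.8 and 13.7 CPM. For both, the groups overlapped. *ZNF331*, an imprinted gene, had 6 and 11 reads against 9 and 19, and *ZNF568* had 11 and 16 reads against 6 and 26. *ZNF536*, a regulator of neuronal differentiation, had 16 and 21 reads in the controls and 10 and 21 with chaetocin. *ZNF382*, often silenced by methylation in tumours, had 0 reads in every library, *ZNF808* had at most 3 reads and *ZNF667* at most 12.

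Members with and without a KRAB-like stretch were compared as a property that the rule did not use. Over 136 tested members with it, the medians against the control mean were -0.03 in chaetocin library 1 and 0.27 in library 2. Over 33 members without it, they were 0.05 and -0.13. In library 2, 103 of the 136 and 13 of the 33 were above 0. By level, 34 members with a mean under 1 CPM had a fitted median of 0.22, and 70 members with at least 5 CPM had one of 0.07. Spearman's rho between log2 fold change and transcript GC content was -0.01 over 169 members, with 0.12 in chaetocin library 1 and -0.14 in library 2. With mean CPM it was -0.16, and with the number of fingers -0.07, or -0.21 in library 1 and 0.09 in library 2. With promoter CpG number it was -0.09 over 151 members, where all points come from the same 4 libraries.

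Genes that write, read or, as the demethylases *KDM4A*, *KDM4B* and *KDM4C*, erase H3K9 methylation were measured as a list, and 0 of 19 were called in either direction, beside 1.11% of all tested genes called higher and 0.743% lower, so that the count sets nothing apart. The median log2 fold change over this mixed list was -0.02. *TRIM28*, the corepressor that KRAB domains bind, had the largest value of the list, with 342 and 335 CPM in the controls and 487 and 750 CPM with chaetocin (log2 fold change 0.87, standard error 0.22, adjusted p = 0.0835). *SUV39H1* had 10.9 and 10.2 CPM against 11.6 and 11.1 CPM. *ATRX*, a chromatin remodeller found at the coding ends of ZNF genes, and *FAM208A*, a subunit of the HUSH complex, had log2 fold changes of -0.44 and -0.46, with adjusted p-values of 0.135 and 0.124.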

How the data were processed

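RNA sequencing of U87MG cells gave 4 tables of raw counts per Ensembl gene, which the authors deposited without normalization, 1 per library. The submitters' processing notes name cutadapt, TopHat2, SAMtools and GRCh37, without versions or order, and the counting tool, its handling of strand and shared reads, and the annotation release are not given in the sources used here. The labels and the paper differ in the RNA kit and the number of cells seeded.

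Symbols, positions and transcripts were taken from GENCODE v29 (GRCh38) by identifier. Counts were tested with edgeR 4.0.16 in R 4.3.3 (filterByExpr at a minimum count of 10, TMM, robust quasi-likelihood fit, Benjamini-Hochberg adjustment over 16416 genes, threshold 0.05), with a common biological coefficient of variation of 16.8%. The fit was checked on simulated data, where 64 of 100 changes of 2-fold and 97 of 100 changes of 4-fold were called. Of the 169 calls in that simulation, 8 were false. Only genes above a minimum mean count were changed there, so the check does not cover genes with few reads. The paper's methods name DESeq2 in another version, and DESeq2 1.42.0 served here as an alternative. Differences per library are of log2 CPM with a prior count of 2. Cluster and family medians carry no test.

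The members and lists were chosen with earlier results of these data known. Named members were all called ones, the 6 largest and 6 smallest log2 fold changes without overlap of the groups, the most abundant member of each cluster, the 18 with a known role and untested members with reads only upon chaetocin. Overlapping genes and paralogs may share reads. Alternatives were other scalings, filters, tools, a replicate block, GC correction, downsampling, other cluster gaps and leaving out each library. Restricting to members with at least 1 CPM or over 20 kb from another was chosen after seeing the data. The values of 1 blood marker are not reported here.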

Additional observations from a re-analysis of the deposited data

Results flagged for a closer look

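Of the 78 listed members left out by the filter on low counts, 3 had reads in both chaetocin libraries and 0 reads in both controls, and were therefore looked at again. *ZNF66* in cluster 4 had 3 and 5 reads, 8 in all. *ZNF208* in cluster 4 had 4 and 2 reads and *ZNF582* in cluster 9 had 5 and 1 reads, 6 in all for each. With so few reads these genes did not pass the filter, and the differences were not tested. All untested members together had 188 and 235 reads in the controls and 221 and 340 with chaetocin.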

How the results depend on the processing

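The count of 1 member called higher and 0 lower depended on the setting. Without the low-count filter the counts were 2 and 1 of 231 members, beside 787 and 759 of 31692 genes. At an adjusted p threshold of 0.1 they were 2 and 2, where the share over all genes was not counted. At an unadjusted p under 0.05 they were 7 and 5, beside 10.9% and 9.43% of all tested genes. With at least 10 counts in every sample, or a mean of at least 1 CPM, 0 members were called higher because *ZNF560* was then not included. Under the filter of 10 counts, 114 of 14486 genes were called higher and 80 lower. With downsampling 0 members were called higher, beside 146 of 15766 genes higher and 101 lower, and *ZNF560* had a log2 fold change of 4.68. DESeq2 called 1 of 231 members lower, beside 478 of 31692 genes. Leaving out 1 library gave 1 to 5 called higher and 0 to 2 called lower, with 1 lower without control library 2, where 215 and 151 of 17399 genes were called. Over all genes the calls were 216 and 97 of 18027 without control library 1, 1332 and 1673 of 17644 without chaetocin library 1 and 712 and 940 of 16819 without chaetocin library 2. A lone library was assumed to vary like the other group.

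In each group the libraries are numbered, and the same-numbered deviations correlated with r = 0.123 over 2 pairs, which share only a number. With the replicate block 3 members were called higher and 3 lower, beside 1036 and 1053 of all genes. With GC correction added the member counts were the same, beside 961 and 1006 of all genes. Under the block alone the adjusted p was 0.000515 for *ZNF175*, 0.0123 for *ZNF772*, 0.0161 for *ZNF101*, 0.0353 for *ZNF146* and 0.0390 for *ZNF223*. Under it *ZNF568* gave -0.042, and -0.029 with GC correction.

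The cluster 6 median was -0.11 under a filter of 10 counts per sample, and the cluster 9 median was 0.17 with upper-quartile scaling, which put the median of all genes at 0.085, and 0.060 with downsampling. Leaving out 1 library gave 0.095 to 0.52 in cluster 1, -0.020 to 0.44 in cluster 2, -0.11 to 0.41 in cluster 3, -0.017 to 0.34 in cluster 4, -0.28 to 0.037 in cluster 5, -0.22 to 0.32 in cluster 6, -0.033 to 0.16 in cluster 7, -0.18 to 0.19 in cluster 8, 0.043 to 0.15 in cluster 9 and 0.14 to 0.29 for isolated members, and in every cluster the lowest value was that without chaetocin library 2. The genes that turned direction in this way ranged from -0.071 to 0.15 (*ZNF558*), -0.056 to 0.17 (*ZNF561*), -0.16 to 0.26 (*ZNF791*), -0.99 to 0.84 (*ZNF93*), -0.87 to 0.53 (*ZNF568*), -0.44 to 0.41 (*ZNF224*), -0.048 to 0.53 (*ZNF473*) and -0.011 to 0.41 (*ZNF304*). Each had its lowest value without chaetocin library 2. The median over all members stayed between 0.085 and 0.19 in the settings that kept all libraries. Its value in chaetocin library 1 was near 0 and its sign was not stable. It was -0.02 in the main setting and ran from -0.026 over members with few shared windows to 0.051 with upper-quartile scaling. It was 0.018 with GC correction, 0.017 with downsampling, 0.00063 under the filter of 10 counts and 0.033 without control library 2. In chaetocin library 2 it was 0.17 or more throughout. Apart from the filters, the cause was not tested.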
